A study of Homo sapiens with 8 samples.

Results

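The 42 genes described here act in G2 and mitosis. They form a list of symbols: cyclins and CDK1 with its activators, mitotic kinases, checkpoint and kinetochore proteins, spindle and cytokinesis proteins, and proteins of mitotic chromosomes. All 42 were found in the deposited table of 57445 genes, each under 1 entry, and all 42 were among the 15806 genes that entered the tests, which needed a mean of 10 or more counts over the libraries. The list uses no threshold on measured values, but it was drawn up with earlier results of these data known.

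The cells were MDA231-BrM2, a subline of the human breast cancer line MDA-MB-231 that metastasises to the brain. Translating ribosome affinity purification (TRAP) was used: anti-GFP beads pull tagged polysomes of the carcinoma cells out of a lysate, and the RNA bound to them is sequenced. The 8 libraries form 4 groups of 2. Control cells carried the hairpin called consh in the labels and were cultured either by themselves or in coculture with astrocytes. Depleted cells carried Cx43sh1 (here hairpin 1) or Cx43sh2 (here hairpin 2), directed against connexin 43, and were only in coculture. Connexin 43 is the gap junction protein encoded by GJA1. All cocultures held carcinoma cells and astrocytes in equal numbers for 24 h. No library of Cx43-depleted cells without astrocytes was analysed here, so a difference between depleted cocultures and control cells alone joins the hairpin and the astrocytes. The series design calls the 2 libraries of a group independent replicates without saying what was repeated, and p-values measure only the spread between these libraries. The species of the astrocytes and the promoter of the tag are not given in the sources used here.

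Genes of this kind are transcribed in waves. Their transcripts are low in G1, build up through S phase, and peak in G2 and mitosis, when the B-type cyclins with CDK1, the Polo and Aurora kinases, and the spindle and kinetochore proteins are needed. In growing cells the group is driven mainly by the MuvB complex with B-Myb and FOXM1, and in arrested cells the DREAM complex, which p21 (CDKN1A) helps to assemble, represses it through promoter elements called cell cycle homology regions. In breast cancer, the summed level of such genes is widely used as a measure of proliferation.

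Gene counts ran from 38219702 to 48997555 per library, and a floor of 3 counts corresponded to 0.0624 to 0.0805 CPM (counts scaled to the library total), far under the level of any member. Such a floor covers counting error only. GJA1, the targeted gene, stood at 51.1 and 46.3 CPM in control cells alone, 65.9 and 64.7 in the control coculture, 27.8 and 27.8 with hairpin 1, and 31.7 and 33.8 with hairpin 2. Both depleted groups therefore lay under both control groups. Replicates differed by more than counting error in all 4 groups: the chi-square statistic over its degrees of freedom was 4.26 (hairpin 2) to 32.9 (hairpin 1).

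The summed level of the 42 genes was highest in control cells alone and lowest with hairpin 2. The libraries of control cells alone summed to 4452 and 4351 CPM, those of the control coculture to 4032 and 3990, those of hairpin 1 to 3864 and 3855, and those of hairpin 2 to 3584 and 3620. No library of one group overlapped with a library of another. As a share of the mean of control cells alone (4402 ± 71.4 CPM, SD, n = 2), the control coculture held 91.1%, hairpin 1 held 87.7% and hairpin 2 held 81.8%. The members made up 0.36% to 0.444% of all gene counts. In RNA pooled over cells, fewer cells in G2 or mitosis and less polysome-bound RNA of these genes per cell cannot be told apart.

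**Figure D1:**
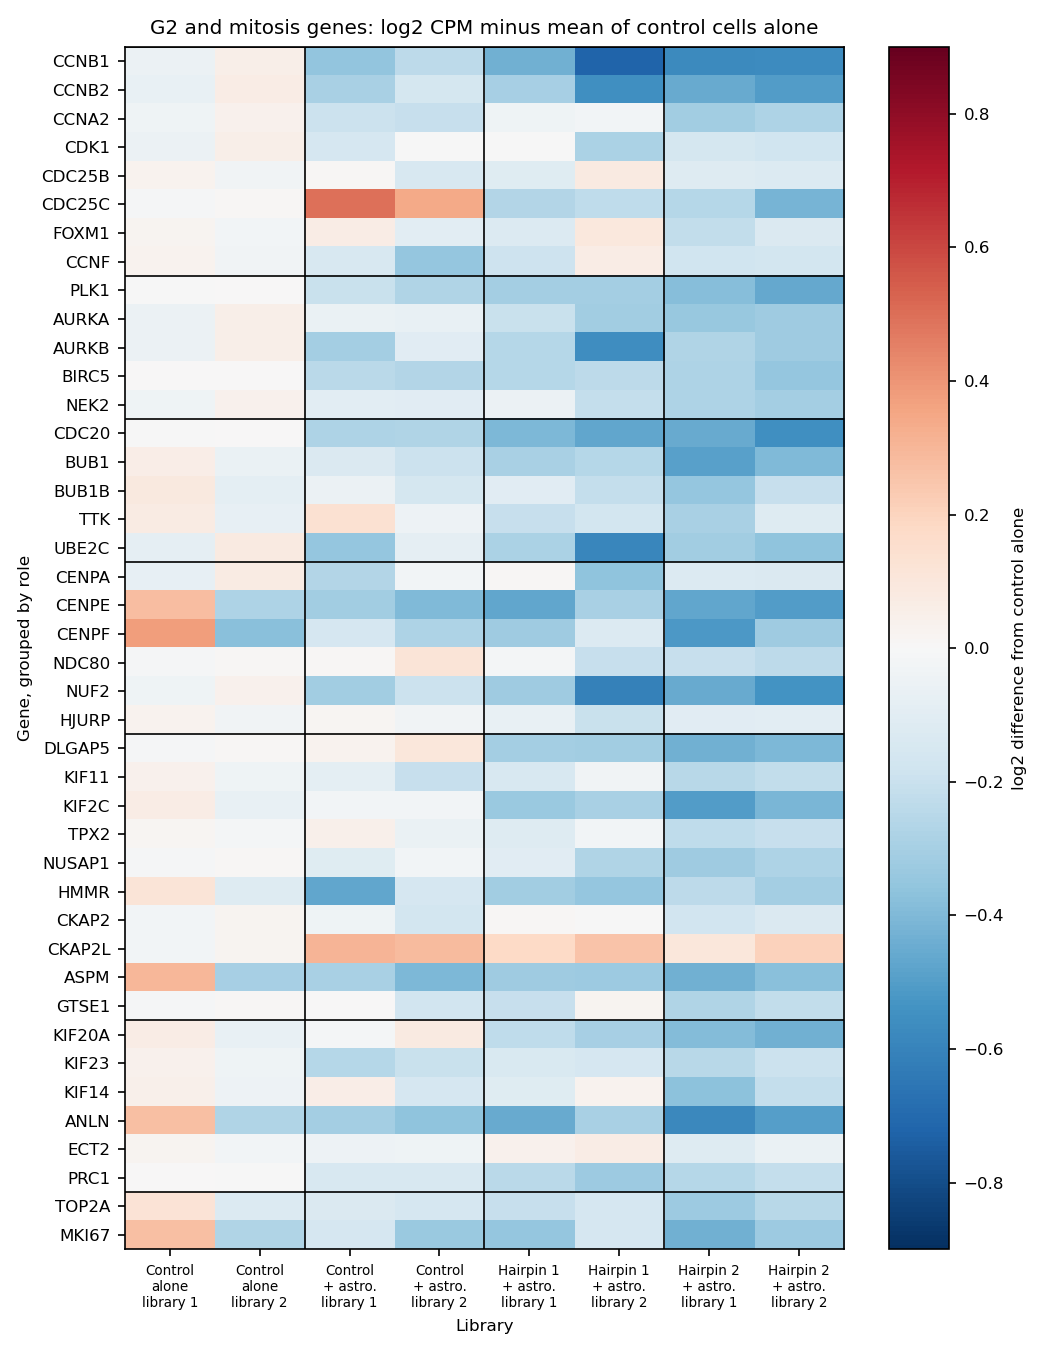
Level of each of the 42 genes in each of the 8 libraries, as log2 CPM minus the mean of control cells alone (colour scale), with genes in rows grouped by role and libraries in columns grouped by condition. Most rows turn blue from left to right; CDC25C is red only in the control coculture, CKAP2L is red in all cocultures, and CENPF, ASPM, ANLN, CENPE and MKI67 differ between the libraries of control cells alone.

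Per kilobase of transcript, UBE2C, the ubiquitin-conjugating enzyme of the anaphase-promoting complex, was the most abundant member, with a mean of 269.9 CPM per kb over the 8 libraries. CDC20, the activator of that complex, followed with 140.5 CPM per kb. The lowest were HMMR, a spindle assembly protein, with 2.05 CPM per kb, and CENPE, the kinetochore motor, with 1.72 CPM per kb.

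The promoters of these genes share sequence elements that the choice of genes did not use. In the RefSeq promoter table (GRCh38.p14, 250 bases before to 50 after a start site), 36 of the 42 members had an entry; AURKA, TTK, TPX2, UBE2C, BIRC5 and FOXM1 had none. The letters TTTGAA, the core of the cell cycle homology region, were found on either strand in 26 of 36 members (72.2%), against 13.9% of the 10362 tested genes with an entry. The CCAAT box, which NF-Y binds, was found in 29 of 36 members (80.6%), against 43.2%. Both lay in 1 window in 22 of 36 members (61.1%), against 5.81%. The motifs do not overlap each other in sequence, and a gene with several start sites was counted when any of its windows held the match. TTTGAA was not found in the windows of CCNB1, CCNA2, CDC25B, AURKB, BUB1, KIF20A, KIF2C, CENPE, NEK2 and CKAP2. A match is a description of letters and not a shown binding site. Only these exact letters were searched, so a window without TTTGAA is not shown to lack the element.

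The 150 bases before the start site are shown for 7 members whose levels the comparisons below turn on, read 5′ to 3′ along the gene's strand, with matches to TTTGAA and to CCAAT in capitals (TTCAAA or, for the box, ATTGG where the match is on the other strand). The windows are from RefSeq on GRCh38.p14. CDC25C (chr5:138331805-138331954, minus strand) has 4 start sites in the table, and the fourth is shown because it was the first with TTTGAA inside these 150 bases. The others are CDC20 (chr1:43358831-43358980, plus strand), PLK1 (chr16:23678739-23678888, plus strand), CCNB1 (chr5:69167000-69167149, plus strand), DLGAP5 (chr14:55191586-55191735, minus strand), KIF20A (chr5:138178962-138179111, plus strand) and CKAP2L (chr2:112764610-112764759, minus strand). CDC25C and PLK1 carry TTTGAA at -30 and -29 with a CCAAT box further upstream. CCNB1 and KIF20A carry CCAAT boxes and no exact TTTGAA, and other forms of the element were not searched.
CDC25C: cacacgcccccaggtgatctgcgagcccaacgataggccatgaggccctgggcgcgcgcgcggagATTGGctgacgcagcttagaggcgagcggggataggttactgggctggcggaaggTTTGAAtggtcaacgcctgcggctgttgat
CDC20: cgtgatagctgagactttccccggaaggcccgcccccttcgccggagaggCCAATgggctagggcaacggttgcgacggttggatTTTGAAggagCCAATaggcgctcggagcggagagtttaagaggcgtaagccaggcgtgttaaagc
PLK1: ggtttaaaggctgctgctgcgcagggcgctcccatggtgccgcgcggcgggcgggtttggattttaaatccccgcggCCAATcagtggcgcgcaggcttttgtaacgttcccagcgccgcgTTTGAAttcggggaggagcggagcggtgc
CCNB1: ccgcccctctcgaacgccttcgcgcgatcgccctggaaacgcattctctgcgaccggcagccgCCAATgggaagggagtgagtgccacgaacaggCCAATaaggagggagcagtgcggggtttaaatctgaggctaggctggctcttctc
DLGAP5: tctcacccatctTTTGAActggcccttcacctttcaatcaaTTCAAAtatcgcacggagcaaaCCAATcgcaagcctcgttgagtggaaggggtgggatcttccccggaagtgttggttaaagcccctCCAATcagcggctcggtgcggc
KIF20A: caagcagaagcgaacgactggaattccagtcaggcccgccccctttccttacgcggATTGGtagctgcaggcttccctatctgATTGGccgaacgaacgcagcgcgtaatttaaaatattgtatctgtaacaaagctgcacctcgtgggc
CKAP2L: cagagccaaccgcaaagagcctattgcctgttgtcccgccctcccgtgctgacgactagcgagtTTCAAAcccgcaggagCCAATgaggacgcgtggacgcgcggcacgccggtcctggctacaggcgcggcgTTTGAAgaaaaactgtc

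Whether astrocytes altered these genes in control cells was asked by comparing the control coculture with control cells alone. CDC20, PLK1 and BIRC5 fell to 0.83 to 0.85 of their level alone, CDC25C and CKAP2L rose, and the other 37 members did not pass the test. Of the 42 members, 3 were called lower and 2 higher at an adjusted p of 0.05 (edgeR quasi-likelihood test, Benjamini-Hochberg over all tested genes), where 2.93% of all tested genes were called lower and 8.74% higher. The fitted log2 change was below 0 for 36 members, with a median of -0.14, against 50.5% of all tested genes below 0 and a median of -0.0026. In 22 members both coculture libraries lay below both libraries of control cells alone, which held for 26.3% of all tested genes.

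Among the members that fell, CDC20 stood at 304.9 and 305.4 CPM in control cells alone and at 251.4 and 253.5 in the control coculture. The groups were far apart next to the gap within each, and the log2 change was -0.27 (SE 0.064, edgeR adjusted p = 0.0263). PLK1, the Polo kinase of mitotic entry and spindle assembly, went from 131.8 and 132.3 to 115 and 109.6 CPM (log2 -0.23, SE 0.062, edgeR adjusted p = 0.0445). BIRC5 encodes survivin, the passenger complex subunit that brings Aurora B to the centromere. It went from 260.9 and 260.9 to 220.7 and 217.7 CPM (log2 -0.25, SE 0.060, edgeR adjusted p = 0.0297).

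CDC25C, a phosphatase that activates cyclin B with CDK1 at mitotic entry, stood at 11.8 and 12 CPM in control cells alone and at 16.8 and 15.1 in the control coculture. Both coculture libraries lay above both others, and the log2 change was 0.42 (SE 0.090, edgeR adjusted p = 0.018). CKAP2L, a spindle-associated protein needed for spindle organisation, went from 78.55 and 80.9 to 98.4 and 96.9 CPM (log2 0.29, SE 0.067, edgeR adjusted p = 0.0243). The other 7 genes of the cyclin and activator role had a fitted change below 0, as had 8 of the 10 spindle genes.

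By role, the mitotic kinases and passenger complex held 2 of the 3 falls, and all 5 of its genes (PLK1, AURKA, AURKB, BIRC5, NEK2) had a fitted change below 0, with a median of -0.20. None of the 6 centromere and kinetochore genes passed the test in edgeR or DESeq2 (median -0.20, 2 lower at an unadjusted p of 0.05 in edgeR). None of the 6 midzone and cytokinesis genes did in either tool (median -0.09, 3 lower at an unadjusted p of 0.05). At that unadjusted p, edgeR gave 10.7% of all tested genes as lower. CCNB1, the B-type cyclin that triggers mitosis, stood at 121.7 and 130.8 against 98.8 and 107.2 CPM, without overlap and without passing the test (log2 -0.29, SE 0.097, edgeR adjusted p = 0.089). CDK1, its kinase, overlapped between the groups, at 122.8 and 132.5 against 115 and 127 CPM (log2 -0.08). MKI67, which encodes the proliferation antigen Ki-67, stood at 153.6 and 105.4 against 114.4 and 100.9 CPM. Its groups overlapped because the libraries of control cells alone were far apart (log2 -0.27, SE 0.16, edgeR adjusted p = 0.317).

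The calls depended on single libraries. CDC20, PLK1, BIRC5 and CKAP2L missed the threshold without any 1 of the libraries of control cells alone, of the control coculture or of hairpin 2. Their edgeR adjusted p then reached up to 0.1498, 0.158, 0.139 and 0.148, while their log2 changes stayed at -0.30 to -0.27, -0.27 to -0.22, -0.26 to -0.25 and 0.26 to 0.31. The hairpin 2 libraries enter this comparison through the shared estimate of spread and not through its means. CDC25C missed it without library 1 or library 2 of control cells alone and without control coculture library 1 (log2 0.34 to 0.48, edgeR adjusted p up to 0.139).

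**Figure D2:**
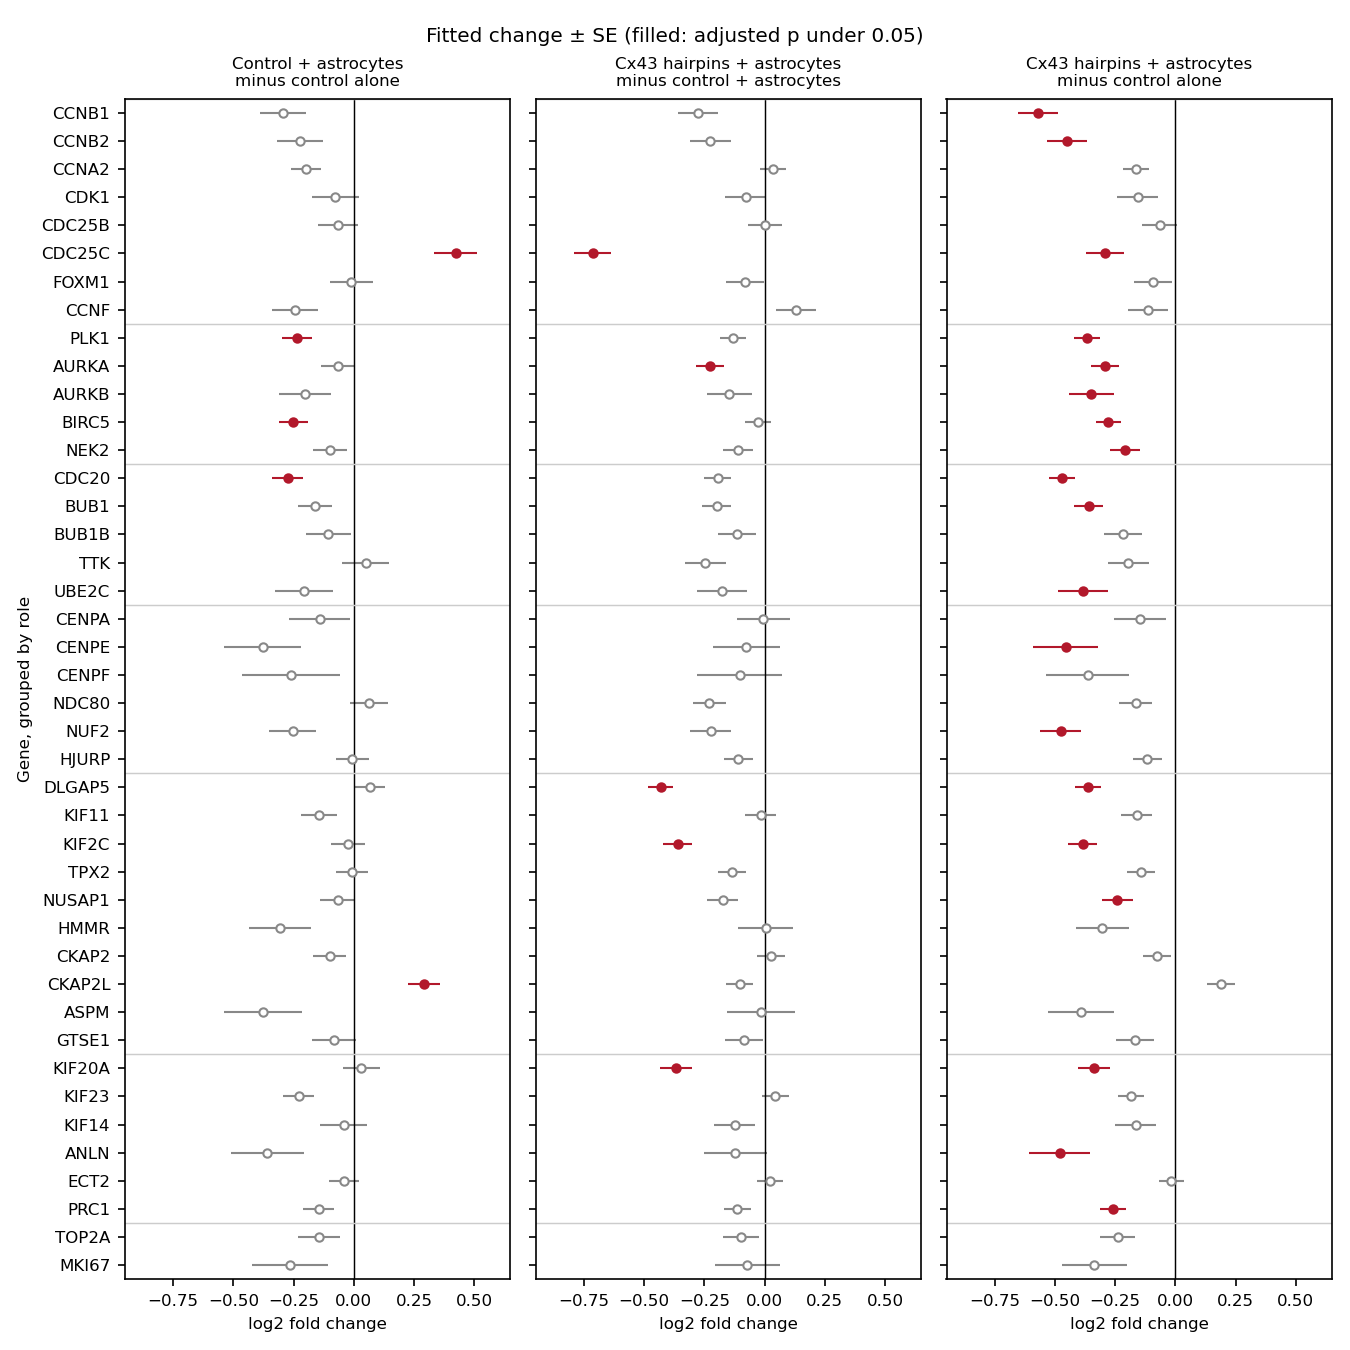
Fitted log2 change with its standard error (bars) for the 42 genes in 3 comparisons, with genes grouped by role and filled points for an adjusted p under 0.05. The left panel has 5 filled points, the middle panel has 5 with CDC25C at -0.71, and the right panel has 19, all below 0; the panels share groups.

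Whether levels in coculture differed when Cx43 was depleted was asked by comparing the mean of both hairpins with the control coculture. No depleted cells without astrocytes were analysed, so a changed response to astrocytes and a hairpin effect apart from them cannot be told apart. CDC25C fell by 0.71 on the log2 scale, DLGAP5 by 0.43, KIF20A by 0.37, KIF2C by 0.36 and AURKA by 0.23, and no member was called higher. These 5 of 42 compare with 5.85% of all tested genes called lower and 3.37% called higher. DESeq2 called 0 members higher, and edgeR gave 0 higher at an unadjusted p of 0.05, where 11.7% of all tested genes were. The fitted change was below 0 for 35 members, with a median of -0.11, against 51.8% of all tested genes and a median of -0.008. In 16 members all 4 depleted libraries lay below both control cocultures, which held for 18.1% of all tested genes.

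CDC25C stood at 16.8 and 15.1 CPM in the control coculture, 9.9 and 10.1 with hairpin 1, and 9.96 and 8.87 with hairpin 2. All 4 depleted libraries were below the control coculture and also below the 11.8 and 12 CPM of control cells alone (log2 -0.71, SE 0.077, edgeR adjusted p = 0.000953). The comparison with control cells alone and the comparison with depleted cells use the same 2 control coculture libraries, so a high value there enters both with opposite sign. In the GENCODE annotation CDC25C overlaps FAM53C on the other strand, and reads of such a pair cannot be told apart without strand. FAM53C was not called (log2 0.06 with astrocytes and -0.02 with depletion).

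DLGAP5, a microtubule-bundling protein of kinetochore fibres, stood at 59.65 and 62.7 CPM in the control coculture, 47.2 and 47.05 with hairpin 1, and 43.3 and 44.1 with hairpin 2. The hairpin libraries lay well below the control coculture, and below the 57.8 and 58.9 CPM of control cells alone (log2 -0.43, SE 0.053, edgeR adjusted p = 0.00182). KIF2C, a kinesin that depolymerises microtubules at centromeres to correct faulty attachments, went from 64.4 and 64.3 CPM to 51.9 and 53.5 with hairpin 1 and 46.2 and 49.1 with hairpin 2 (log2 -0.36, SE 0.060, edgeR adjusted p = 0.0085).

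KIF20A, a midzone kinesin needed for cytokinesis, went from 34 and 36.2 CPM to 29.35 and 28 with hairpin 1 and 26.2 and 25.5 with hairpin 2 (log2 -0.37, SE 0.066, edgeR adjusted p = 0.0122). It overlaps BRD8 and CDC23 on the other strand, whose log2 changes were -0.32 and 0.0063 and were not called. AURKA, the Aurora kinase of centrosomes and spindle poles, went from 148.9 and 148.1 CPM to 135.1 and 125.3 with hairpin 1 and 122.9 and 124.4 with hairpin 2 (log2 -0.23, SE 0.059, edgeR adjusted p = 0.0466). In all 5 genes the depleted libraries lay below the control coculture without overlap.

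Of these 5 calls, those of CDC25C and DLGAP5 held without each of the 8 libraries in turn and under the 6 other settings tried. The call of KIF2C was lost without either library of the control coculture, and that of KIF20A was lost without either of those or without library 2 of hairpin 2 (edgeR adjusted p up to 0.0775 and 0.143). The AURKA call held only without library 1 of hairpin 1 and was otherwise lost when any 1 library was left out (edgeR adjusted p up to 0.234). It was also lost under 5 of the 6 other settings, all but the length offsets described further on. None of the 6 kinetochore genes passed the test in edgeR or DESeq2 (2 lower at an unadjusted p of 0.05 in edgeR). None of the 5 checkpoint and anaphase-promoting complex genes did in either tool (3 lower at an unadjusted p of 0.05), and all 5 had a fitted change below 0 (median -0.20). At that unadjusted p, edgeR gave 2209 of the 15806 tested genes as lower. CCNB1 had a log2 change of -0.28 (edgeR adjusted p = 0.0751), CDK1 of -0.08, PLK1 of -0.13 and MKI67 of -0.07.

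**Figure D3:**
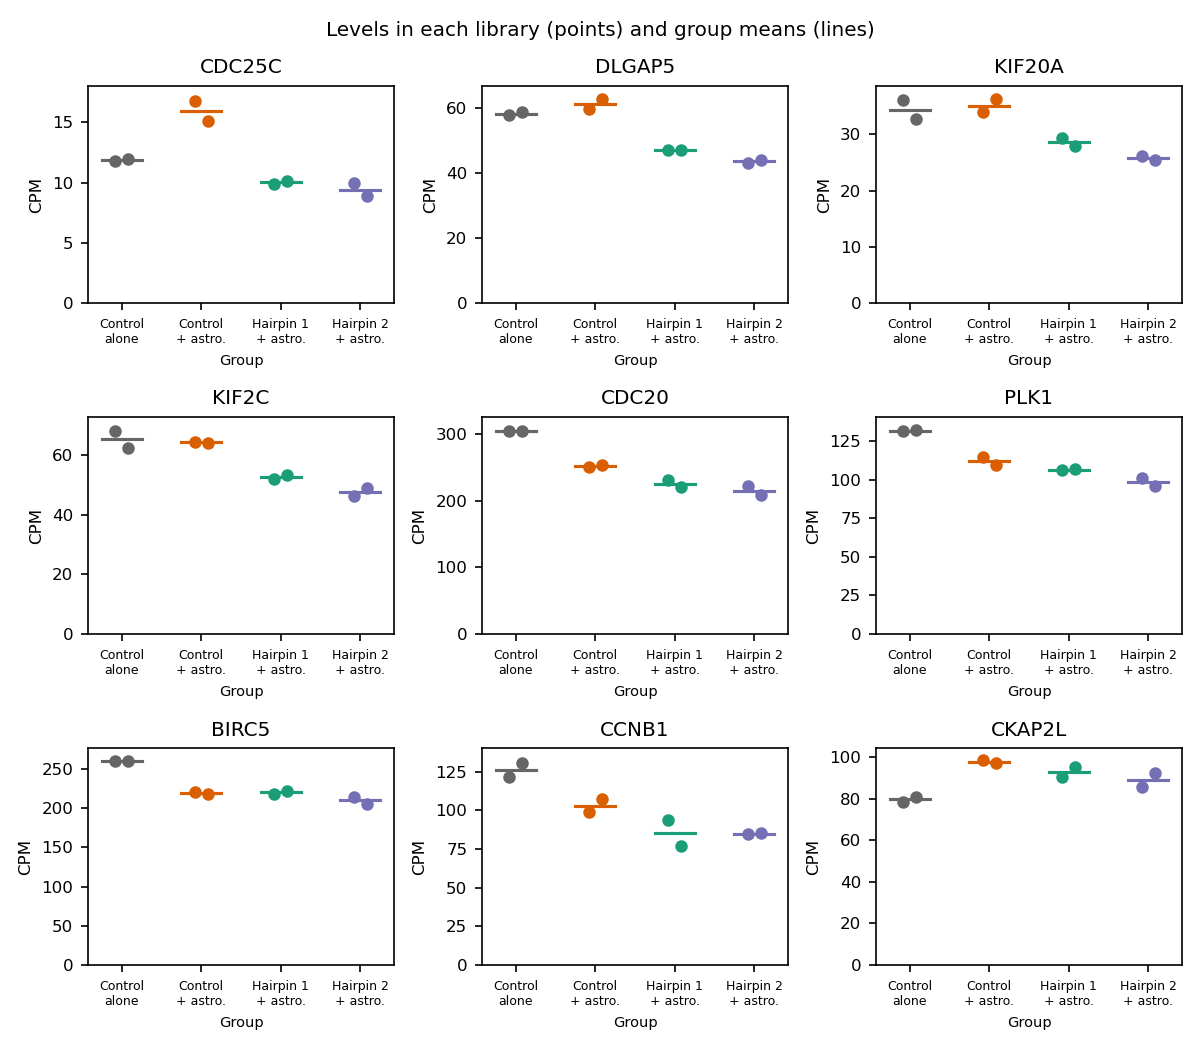
CPM of 9 genes in each library (points) and group means (lines), by group on the horizontal axis, with vertical axes starting at 0. CDC25C is highest in the control coculture, DLGAP5, KIF20A and KIF2C are lower with both hairpins than in both control groups, CDC20, PLK1 and CCNB1 are lower in every coculture than alone, and CKAP2L is higher in every coculture than alone.

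Each hairpin was also set against the control coculture, which both comparisons share. With hairpin 1, CDC25C (log2 -0.67), DLGAP5 (-0.38) and KIF2C (-0.29) were called lower and no member higher, against 4.73% and 3.09% of all tested genes. With hairpin 2, CDC25C (-0.76), DLGAP5 (-0.49), KIF20A (-0.44) and KIF2C (-0.43) were called lower and no member higher, against 3.20% and 0.962%. With each library left out in turn, CDC25C with hairpin 1 was the only call that always held. The KIF2C call with hairpin 1 was lost in all 8 leave-outs (log2 -0.31 to -0.26). That call was also lost with the replicate number as a block and in a fit of the compared groups only. With hairpin 2, KIF20A and KIF2C were each lost in 4 of 8 leave-outs (log2 -0.49 to -0.38 and -0.48 to -0.39). DESeq2 called 0 members higher with either hairpin, and at an unadjusted p of 0.05 edgeR gave 1 higher with hairpin 1 (12.2% of all tested genes) and 0 with hairpin 2 (8.24%). The 1 was CCNA2 (log2 0.17), named after its value was seen. The median over members was -0.06 with hairpin 1, with 31 of 42 below 0 (51.7% of all tested genes), and -0.17 with hairpin 2, with 38 of 42 below 0 (50.7%). Both libraries lay under both control cocultures for 16 members with hairpin 1 (25.2% of all tested genes) and for 32 with hairpin 2 (28.0%).

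The hairpins themselves were compared with each other to see whether these patterns differed. No member was called in edgeR or in DESeq2, against 0.00633% of all tested genes lower and 0.0253% higher, and the smallest edgeR adjusted p was 0.705. At an unadjusted p of 0.05, edgeR gave 4 members lower with hairpin 2 and 0 higher, against 3.25% and 3.61% of all tested genes. The 4, named after their values were seen, were CCNA2 (log2 -0.26), KIF14 (-0.25), BUB1 (-0.17) and ECT2 (-0.14). CCNA2, the cyclin of S phase and G2, stood at 310.9 and 313.6 CPM with hairpin 1 and 256.7 and 263.2 with hairpin 2, around the 279 and 276.7 of the control coculture. The median over members was -0.11, against -0.0081 over all tested genes. In 24 members both hairpin 2 libraries lay under both hairpin 1 libraries, which held for 19.2% of all tested genes. GJA1 itself, at 27.8 and 27.8 CPM with hairpin 1 and 31.7 and 33.8 with hairpin 2, was not called (log2 0.24, SE 0.074, edgeR adjusted p = 0.705).

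The depleted cocultures were last set against control cells alone, a comparison that shares its groups with the others. Here 19 of 42 members were called lower and none higher, against 6.34% and 10.8% of all tested genes. At an unadjusted p of 0.05, 1 member was higher in edgeR (19.1% of all tested genes), and DESeq2 called 0 higher. The fitted change was below 0 for 41 members (median -0.25, against 50.3% of all tested genes and a median of -0.0021), and 28 members did not overlap between groups on the lower side (20.6%). The exception was CKAP2L, at 0.19 (edgeR adjusted p = 0.0563).

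CCNB1 had the most negative value, with 121.7 and 130.8 CPM in control cells alone, 93.6 and 76.6 with hairpin 1, and 84.7 and 85.15 with hairpin 2 (log2 -0.57, SE 0.083, edgeR adjusted p = 0.00352). CCNB2, the other B-type cyclin listed, went from 54.2 and 59.5 CPM to 46.2 and 38.7 with hairpin 1 and 41.5 and 40.1 with hairpin 2 (log2 -0.45, edgeR adjusted p = 0.00959). CDC20 went from 304.9 and 305.4 CPM to 230.7 and 221 with hairpin 1 and 222.3 and 208.1 with hairpin 2 (log2 -0.47, edgeR adjusted p = 0.00135). For all 3 genes the control coculture, at 98.8 and 107.2, 46.4 and 50.9, and 251.4 and 253.5 CPM, lay between the groups.

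All 5 mitotic kinases and passenger genes fell. PLK1 stood at 106.7 and 106.8 CPM with hairpin 1 and 101.1 and 95.8 with hairpin 2 (log2 -0.37 against control cells alone, edgeR adjusted p = 0.00367). BIRC5 stood at 218.5 and 221.9 with hairpin 1 and 214.9 and 205.3 with hairpin 2, near the control coculture (log2 -0.28 against control cells alone, edgeR adjusted p = 0.00977). AURKA (log2 -0.29), AURKB, the kinase of the passenger complex (-0.35), and NEK2, which splits centrosomes (-0.21), were the others. NEK2 passed narrowly (edgeR adjusted p = 0.0492), and its call was lost in 7 of 8 leave-outs and under 5 of the 6 other settings. DESeq2 called 4 of the 5 lower. The AURKB call was lost in 4 of 8 leave-outs and with the replicate number as a block.

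Of the 5 checkpoint and anaphase-promoting complex genes, 3 fell: CDC20, UBE2C (log2 -0.38) and BUB1, a checkpoint kinase. The call of UBE2C, the shortest member, was lost in 5 of 8 leave-outs, with the replicate block (log2 -0.38) and with length offsets (log2 -0.12). BUB1 went from 89.7 and 82.6 CPM in control cells alone to 70.2 and 72 with hairpin 1 and 61.4 and 65.4 with hairpin 2 (log2 -0.36, edgeR adjusted p = 0.00671). Of the 6 kinetochore genes, NUF2, a subunit of the NDC80 complex that holds microtubules, went from 50.15 and 52.7 CPM to 41.15 and 33.7 with hairpin 1 and 37.6 and 35.4 with hairpin 2 (log2 -0.48, edgeR adjusted p = 0.00829). CENPE was called at -0.45. NDC80, another gene of the complex that holds NUF2, was not called (log2 -0.17), nor were CENPA (-0.15), CENPF (-0.36) and HJURP (-0.12).

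Of the spindle proteins DLGAP5 (log2 -0.36), KIF2C (-0.38) and NUSAP1 (-0.24) fell, and of the midzone and cytokinesis proteins KIF20A (-0.34), ANLN (-0.48) and PRC1 did. PRC1, which crosslinks midzone microtubules, went from 61.4 and 60.9 CPM to 51.8 and 48.7 with hairpin 1 and 51.2 and 52.8 with hairpin 2 (log2 -0.26, edgeR adjusted p = 0.0153). CDC25C was the third gene of the cyclin and activator role to fall (-0.29). CDK1 stood at 127 and 104.6 CPM with hairpin 1 and 114.4 and 112.4 with hairpin 2, overlapping control cells alone (log2 -0.16, edgeR adjusted p = 0.222). MKI67 stood at 99.9 and 114.5 CPM with hairpin 1 and 94.3 and 101.6 with hairpin 2 (log2 -0.34, edgeR adjusted p = 0.115), and TOP2A, the topoisomerase that untangles sister chromatids, was not called either (-0.24).

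Without each of the 8 libraries in turn, 4 of the 19 calls always held: CCNB1, CDC20, DLGAP5 and PLK1. Without library 1 or library 2 of control cells alone, 13 and 10 of the 19 were lost, and without library 1 or library 2 of hairpin 2, 9 and 12 were lost. Leaving out library 2 of hairpin 1 or either control coculture lost 2, and leaving out library 1 of hairpin 1 lost 0. CENPE and ANLN moved most without library 1 of control cells alone, to log2 values of -0.17 and -0.20.

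Over the 6 comparisons, 20 members were called in at least 1 and 22 in none, and 25.8% of all tested genes were called in at least 1. The 22 were CCNA2, CDK1, CDC25B, CCNF and FOXM1 of the cyclin and activator role, and BUB1B and TTK of the checkpoint. They also held CENPA, CENPF, NDC80 and HJURP of the kinetochore, KIF11, TPX2, HMMR, CKAP2, ASPM and GTSE1 of the spindle, KIF23, KIF14 and ECT2 of cytokinesis, and both chromosome genes. FOXM1, the transcription factor that drives many of the others, stood at 261.8 to 325.9 CPM over the 8 libraries and its groups overlapped in every comparison except those of hairpin 2 with the control coculture and with hairpin 1.

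Replicate libraries differed by transcript length, which bears on the long members. In control cells alone, library 2 minus library 1 on the log2 CPM scale correlated with log2 transcript length at r = -0.822 over the 42 members and at -0.235 over the 13233 tested genes with a length. The values over members were -0.641 in the control coculture, 0.718 with hairpin 1 and 0.617 with hairpin 2. All points of one such comparison come from the same 2 libraries. The long genes CENPF (65.7 and 39 CPM), ASPM (40.4 and 26.7) and MKI67 were higher in library 1 of control cells alone, while the short genes UBE2C (273.9 and 306.8 CPM) and CENPA (86.4 and 95.9) were higher in library 2. These genes were picked after their values were seen.

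**Figure D4:**
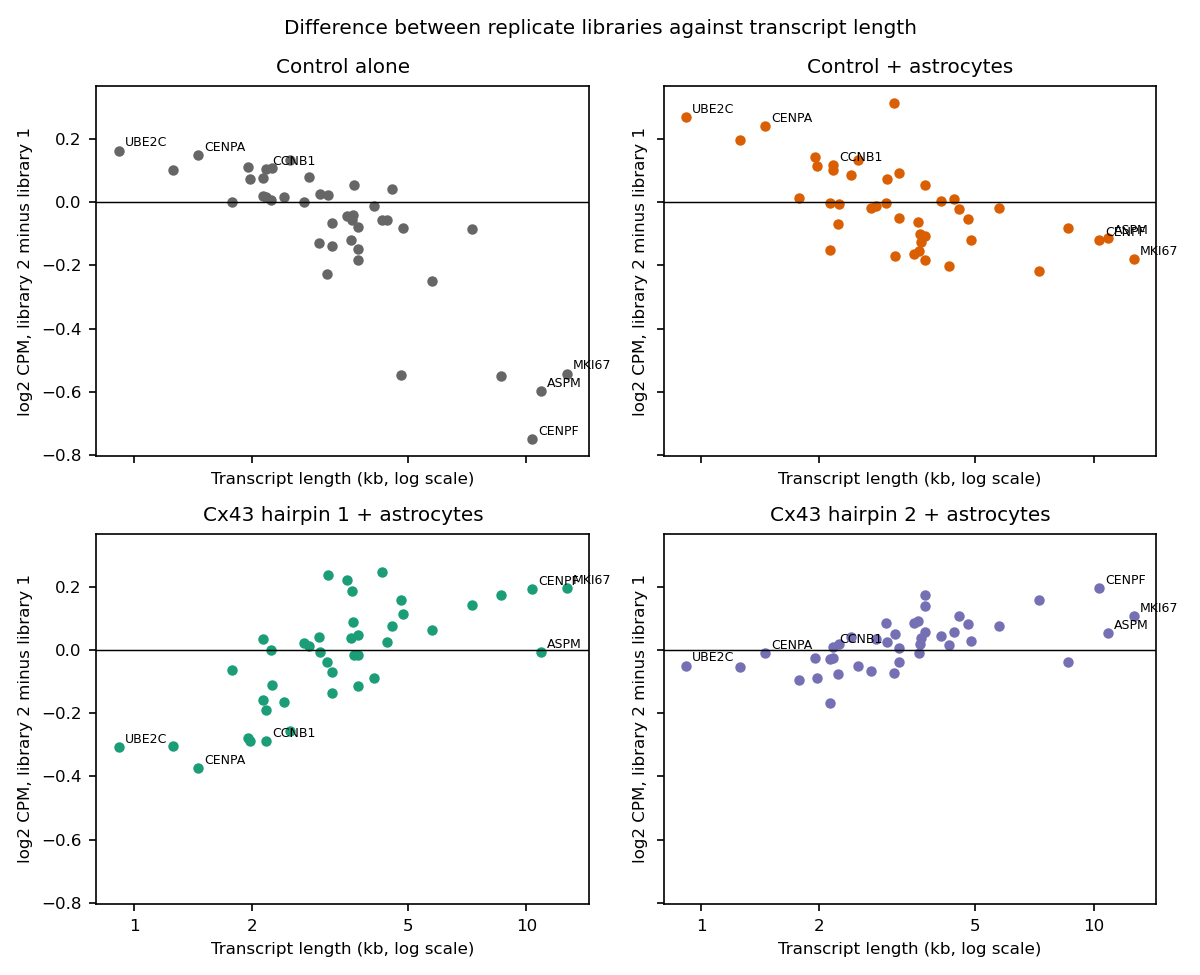
Difference in log2 CPM between library 2 and library 1 of each group (vertical axis) against transcript length in kb on a log scale (horizontal axis), 1 point for each of the 42 genes. The cloud slopes down in control cells alone (r = -0.822) and the control coculture (-0.641) and up with hairpin 1 (0.718) and hairpin 2 (0.617).

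Between groups, the correlations with length were nearer 0 for the members' fitted changes. For members, r was -0.181 with astrocytes, 0.294 with depletion, 0.409 with hairpin 1 and 0.154 with hairpin 2. It was -0.489 between the hairpins and 0.0947 between the depleted cocultures and control cells alone. Over the 13233 tested genes with a length, r was 0.0959, 0.185, 0.27, 0.0759, -0.367 and 0.304 in the same order. Several of these were as far from 0 as the -0.235 between the libraries of control cells alone. The median change with astrocytes was -0.14 in the 21 shorter members and -0.14 in the 21 longer ones, and with depletion it was -0.17 and -0.10. With hairpin 1 it was -0.16 in the shorter and -0.0063 in the longer members. In the depleted cocultures against control cells alone it was -0.29 in the shorter members, 14 of them called lower, and -0.20 in the longer ones, 5 of them called. When a smooth curve on length was removed within each library, a setting added after seeing the data, 12 members were called lower with astrocytes (7.63% of all tested genes), among them CCNB1, CCNA2, KIF23 and NUF2. With depletion 9 were called lower (8.67%), the 5 above with CCNB1, BUB1, TTK and NDC80. In the depleted cocultures against control cells alone, 27 were called lower (9.59%), MKI67 and CENPF among them, while the calls of CDC25C, UBE2C and NEK2 were lost. Other ways in which length could enter these values were not tested.

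Other genes of cell division were read from lists that do not share genes with the 42. Their counts at an adjusted p of 0.05 stand against the shares of all tested genes given above: 2.93% lower and 8.74% higher with astrocytes, 5.85% and 3.37% with depletion, and 6.34% and 10.8% in the depleted cocultures against control cells alone. At an unadjusted p of 0.05, edgeR gave 1693 of the 15806 tested genes lower and 2595 higher with astrocytes. With depletion it gave 2209 lower and 1854 higher. The lists' unadjusted counts stand against these numbers. Of 61 further spindle, kinetochore and cytokinesis genes, 6 fell with astrocytes (median -0.17), and 0 rose in edgeR, also at an unadjusted p of 0.05, or in DESeq2. The falls were led by SKA3 (log2 -0.33), CENPM (-0.44), FAM83D (-0.34) and MLF1IP, also named CENPU (-0.34). With depletion 0 of the 61 were called in edgeR (median -0.0092), DESeq2 called 1 lower, and at an unadjusted p of 0.05 edgeR gave 3 higher and 8 lower. The smallest p there belonged to KIF22, a kinesin that binds chromosomes (log2 -0.22). Against control cells alone, 13 of the 61 were lower in depleted cocultures (median -0.18), led by TACC3 (-0.44), FAM64A (-0.49), FAM83D (-0.36) and TROAP (-0.53). Without 1 library the 6 calls became 0 to 13 and the 13 became 2 to 23.

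Of 22 regulators of mitotic entry and exit, MASTL, the Greatwall kinase that holds down the phosphatase opposing CDK1, was the only one to rise with astrocytes (log2 0.40, edgeR adjusted p = 0.0158). It fell with depletion (-0.45, edgeR adjusted p = 0.00684), where ARPP19, a substrate of that kinase, rose (0.20). These comparisons share the control coculture, as for CDC25C. Of 15 subunits and enzymes of the anaphase-promoting complex, CDC16 (-0.43) and ANAPC7 (-0.29) fell with astrocytes and 0 were called with depletion in edgeR or DESeq2 (median 0.0088, 1 higher at an unadjusted p of 0.05 in edgeR). Of 24 condensin, cohesin and chromosome genes 0 were called with astrocytes in edgeR (median -0.08, 1 higher and 4 lower at an unadjusted p of 0.05, and 1 lower in DESeq2). With depletion STAG1 rose (0.30) and NCAPD2 fell (-0.29). In the depleted cocultures against control cells alone, the counts of genes higher and lower were 3 and 3 of the 22, 0 and 4 of the 15, and 0 and 3 of the 24.

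Among 20 genes of the MuvB, Myb, E2F and pocket protein families, which bind the promoters of such genes, MYBL1 fell with astrocytes (log2 -0.24). With depletion LIN54 (0.29), RB1 (0.30) and E2F7 (0.32) rose, and 0 fell in edgeR, also at an unadjusted p of 0.05, or in DESeq2. In the depleted cocultures against control cells alone, RBL2 (0.38), RB1 (0.27), LIN54 (0.26) and E2F3 (0.25) were higher and 0 lower. Without 1 library these 3 and 4 rises became 0 to 6 and 0 to 4, and with the replicate block 1 and 2. Of 18 CDK inhibitors and G2 arrest genes, 4 rose with astrocytes: BTG2 (log2 1.18), CDKN1A (0.81), CCNG2 (0.66) and CDKN2B (0.51), all without each library in turn. CDKN1A, which encodes p21, stood at 147.7 and 142.7 CPM in control cells alone, 256.1 and 253 in the control coculture, 187.7 and 198.1 with hairpin 1, and 220.3 and 217.2 with hairpin 2. Its depleted libraries lay between the control groups, and it fell with depletion (log2 -0.31, edgeR adjusted p = 0.00958). This fall was lost in 4 of 8 leave-outs, with a log2 change of -0.33 to -0.26 over all settings. With depletion 6 of the 18 fell: CDKN1C (-0.77), CDKN2D (-0.49), GADD45B (-0.48), GADD45A (-0.41), SFN (-0.37) and CDKN1A. CDKN2B rose (0.51). Against control cells alone CDKN3 (-0.38), GADD45A (-0.64), CDKN2C (-0.36), CDKN2D (-0.31) and SFN (-0.57) were lower, and the 4 genes that rose with astrocytes were higher. Without 1 library the 6 falls became 0 to 6 and the 5 became 1 to 6, while the 4 rises stayed at 4 to 6 and 4 to 5. GADD45A, GADD45B, SFN, CDKN3 and CDKN2C were named after their values were seen.

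Of 40 genes of DNA replication and S phase, 4 fell with astrocytes (median -0.13): RFC3 (log2 -0.30), CDC45 (-0.31), FEN1 (-0.26) and DSCC1 (-0.29). With depletion only DSCC1 was called, at 0.26, and the median was 0.04. In the depleted cocultures against control cells alone 3 of the 40 were lower: FEN1 (-0.31), GINS2 (-0.32) and CHAF1B (-0.22). Without 1 library the 4 became 0 to 6 and the 3 became 0 to 11. With the replicate block they became 0 and 1 (1.23% and 3.14% of all tested genes lower), and with length offsets 9 and 8 (7.63% and 9.59%). Of 9 G1 cyclins and their kinases, CCND3 (0.52) and MYC (0.47) rose with astrocytes. With depletion CCND3 (-0.46), MYC (-0.37) and CDK2 (-0.21) fell, and against control cells alone 1 of the 9 was higher. Among the genes of these other lists named here, the calls of CDC16, BTG2, CDKN1A, CCNG2, CDKN2B, CCND3 and MYC with astrocytes held without each library in turn. So did those of CDKN2B, CCND3 and MYC with depletion. Against control cells alone, the calls of TACC3, FAM64A, BTG2, CDKN1A, CCNG2 and CDKN2B held in the same way. Of the other calls followed gene by gene, each was lost without at least 1 library.

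Markers of other cells differed between the groups, but not in the same way in all cocultures. The summed level of 23 astrocyte markers was 258 to 262.4 CPM in control cells alone, 318.2 to 319.8 in the control coculture, 261.3 to 271.4 with hairpin 1 and 261.2 to 265.9 with hairpin 2. With astrocytes 7 of the 17 tested markers rose (8.74% of all tested genes), and with depletion 5 fell (5.85%). Against control cells alone 6 were higher and 1 lower in the depleted cocultures (10.8% and 6.34% of all tested genes). These shares also stand beside the marker counts that follow. GFAP did not follow the sum: it stood at 8.8 and 8.53 CPM in control cells alone, 13.8 and 12.8 in the control coculture, 16.5 and 16.9 with hairpin 1, and 11.7 and 12.2 with hairpin 2. It was called higher with hairpin 1 than in the control coculture (log2 0.33, edgeR adjusted p = 0.0397). GJB6 and S100B were under the floor in every library and AQP4 had 2 to 7 counts. Microglial markers summed to 3.54 to 4.31 CPM in control cells alone, 6.99 to 7.46 in the control coculture, 5.29 to 5.51 with hairpin 1 and 4.68 to 4.82 with hairpin 2, with AIF1, C1QA and TYROBP at 0. All 3 that were tested rose with astrocytes and 1 fell with depletion.

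Markers of the carcinoma line summed to 3222 to 3481 CPM in control cells alone, 3994 to 4168 in the control coculture, and 3188 to 3489 in the depleted cocultures. Of the 13 tested, 5 rose and 1 fell with astrocytes (8.74% and 2.93% of all tested genes), and 4 fell with depletion (5.85%). Fibroblast markers summed to 658.3 to 1068 CPM in control cells alone, 752.5 to 808.5 in the control coculture, 428.6 to 504 with hairpin 1 and 478.9 to 493.5 with hairpin 2, and 3 of the 7 tested, the collagens COL1A1 and COL1A2 and POSTN, fell with depletion. Neuronal markers summed to 20.4 to 21 CPM in control cells alone, 28.3 to 28.9 in the control coculture, 19.8 to 20.1 with hairpin 1 and 20.3 to 21.2 with hairpin 2, and MAP2 and GAP43 rose with astrocytes and fell with depletion. Oligodendrocyte markers summed to 88.6 to 97.9, 108.6 to 116.2, 99.8 to 111.8 and 92.9 to 97.7 CPM in the same order of groups. Endothelial markers summed to 8.38 to 10.4, 11.4 to 12.2, 9.23 to 9.44 and 9.96 to 10 CPM (PECAM1 was not matched). The sums of the astrocyte, microglial, neuronal, endothelial and carcinoma markers were thus highest in the control coculture, without overlap with the other groups. The part of RNA from other cells in the members' values was not tested. The share of reads that did not map uniquely was 14.2% to 26.1%, highest in library 1 of the control coculture.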

How the data were processed

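The 8 libraries, 2 in each of 4 groups, were made with the TruSeq RNA v2 kit from polysome-associated RNA, according to the labels' protocols. The submitters' processing notes name TopHat2, HTSeq, DESeq2 and hg19 but no versions. The annotation and how reads were assigned, strand included, are not given in the sources used here. The deposited table is named as normalized counts, but it holds whole numbers with HTSeq's counter rows. DESeq2 size factors estimated from it ran from 0.892 to 1.14, so the deposited values were used as raw counts per gene. HTSeq's counter rows, such as alignments that were not unique (14.2% to 26.1%), were left out, and 0 columns stayed unmapped.

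The quasi-likelihood test of edgeR 4.0.16 (R 4.3.3) was run on the counts with TMM scaling, a minimum mean count of 10, the 4 groups as design over all 8 libraries, 6 contrasts and Benjamini-Hochberg adjustment over 15806 genes at 0.05. For depletion, both hairpins were averaged and set against the control coculture. CPM use TMM-scaled library sizes. Depth was 38219702 to 48997555 gene counts per library. Transcript lengths and gene overlaps are from GENCODE v29 (GRCh38), the longest basic coding transcript of each gene matched on Ensembl identifiers.

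The 42 members and the other lists were chosen with earlier results of these data known. Values in every library were given for at most 14 called members, those with the smallest p over the contrasts, and for CDK1, CCNB1, PLK1 and MKI67; from other lists, up to 4 genes with the smallest p in a contrast were named. Alternatives were DESeq2 size factors, DESeq2 1.42.0, no filter, a replicate block, a fit of the compared groups only, leaving out each library, and length offsets. The test was checked on simulated data.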

Additional observations from a re-analysis of the deposited data

How the results depend on the processing

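Without 1 library in turn, the number of members lower ranged from 0 to 7 with astrocytes, 2 to 11 with depletion, 1 to 5 with hairpin 1, 0 to 7 with hairpin 2 and 6 to 24 in the depleted cocultures against control cells alone. Over the same leave-outs, the share of all tested genes lower ranged from 0.569% to 5.08%, 1.91% to 8.19%, 1.58% to 7.94%, 0.873% to 4.89% and 0.981% to 13.5%, and the highest member counts (7, 11, 5, 7 and 24) came with a share of 5.05% or 5.08%, 8.19%, 7.94%, 4.89% or 4.88%, and 13.5%. The number higher ranged from 0 to 2 with astrocytes, 0 to 1 with hairpin 1 and 0 to 1 in the depleted cocultures against control cells alone. The median log2 change ranged from -0.15 to -0.10, -0.13 to -0.094, -0.084 to -0.051, -0.19 to -0.13 and -0.28 to -0.20 in the same order of comparisons, so that its sign held throughout. With no filter, 7 members were lower with astrocytes (3.76% of the 30073 genes then tested) and the median was -0.16. In a fit of only the compared groups 1 member was lower with hairpin 1 (1.36% of all tested genes). With the transcript length offsets, chosen after seeing the data, 12, 9 and 9 members were lower with astrocytes, with depletion and with hairpin 2. The shares of all tested genes were 7.63%, 8.67% and 5.80%. With hairpin 1, 1 member was higher (5.88%), and the medians were -0.078 with hairpin 1 and -0.095 between the hairpins. The cause of these moves was not tested. With the replicate number as a block, 1 member was higher and 0 lower with astrocytes. Of all tested genes, 1.23% were then lower and 7.34% were called in either direction. In the depleted cocultures against control cells alone, 12 members were lower with the block (3.14% of all tested genes). Whether same-numbered libraries form pairs cannot be decided here. Deviations of same-numbered libraries correlated at -0.367 to 0.189 over the pairs of groups. Of the 8 libraries, 2 were closest to a library of their own number. With 2 libraries a group, the deviations within a group mirror each other, so these 8 checks are not independent. Replicate differences also followed transcript length, at r = -0.414 in the control coculture and 0.474 with hairpin 1 over the tested genes. Of the settings tried for the single members named, 644 values kept their side of the threshold, 139 lost a call, 15 gained one and 0 reversed. The 644 include values of CDK1, CCNB1, PLK1 and MKI67 in comparisons where they were not called. Some uncalled changes crossed 0 in the leave-outs, as MKI67 with astrocytes (log2 -0.52 to 0.016) and CDK1 with hairpin 1 (-0.21 to 0.069) did.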

Other observations

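CKAP2L, the member that rose with astrocytes beside CDC25C, has IL1A as its nearest coding gene upstream on the same strand, with a gap of 9237 bases in the GENCODE v29 annotation. IL1A encodes the cytokine interleukin-1 alpha. It stood at 8.09 and 8.61 CPM in control cells alone, 16.7 and 16.7 in the control coculture, 8.21 and 7.05 with hairpin 1, and 8.99 and 8.94 with hairpin 2. It rose with astrocytes (log2 1.00, edgeR adjusted p = 0.000214) and fell with depletion (log2 -1.01, edgeR adjusted p = 8.66e-05). Its depleted libraries lay near control cells alone, while those of CKAP2L, at 85.7 to 95.3 CPM, lay between its 78.55 and 80.9 CPM in control cells alone and its 98.4 and 96.9 CPM in the control coculture. Of the 12 members with such an upstream gene within 10 kb, CKAP2L and KIF23 were the 2 whose upstream gene was called with astrocytes. This pair of genes was looked at after the values were seen.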
